A study of Homo sapiens with 15 samples.

Results

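Genes of prostaglandin synthesis, breakdown and signalling were followed in A549 cells treated with geldanamycin. The genes are PLA2G4A, PTGS1, PTGS2, PTGES, HPGD, PTGER2 and PTGER4. Every probe set that the platform annotation gives exactly 1 gene symbol, current or former, among these 7 was taken. This gave 16 of the 54613 non-control probe sets of the array, with 4 each for PTGS1 and HPGD, 2 each for PTGS2, PTGES and PTGER4, and 1 each for PLA2G4A and PTGER2. All 7 genes were found, among 19775 genes with such a probe set, and the probe set with the highest mean over all arrays stands for its gene. A549 is an established human lung carcinoma line with epithelial features. Geldanamycin occupies the ATP pocket of the chaperone HSP90. There were 15 Affymetrix HG-U133 Plus 2.0 arrays of total RNA, 3 in each of 5 groups. Cells given DMSO vehicle or 40 nM geldanamycin were taken at both 24 h and 48 h, and cells given 10 nM geldanamycin at 48 h alone. Per the labels, 40 nM was the IC50 and 10 nM the IC20, the vehicle was 0.4% DMSO, and cells had been seeded 24 h before treatment. All groups are the same line with no genetic change named, and the labels do not say whether replicates were separate cultures, so p-values measure the spread between arrays, which may be technical.

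Prostaglandins are short-lived lipid signals made from arachidonic acid. Cytosolic phospholipase A2, encoded by PLA2G4A, releases arachidonic acid from membranes, and the cyclooxygenases PTGS1 (COX-1, the constitutive form) and PTGS2 (COX-2, the inducible form) turn it into prostaglandin H2. The microsomal synthase PTGES makes prostaglandin E2 from it, HPGD oxidises and so inactivates prostaglandin E2, and PTGER2 and PTGER4 are the Gs-coupled receptors that raise cyclic AMP. In lung epithelium this pathway is known for its response to inflammatory signals, and PTGS2 and PTGES are typically induced together. Bulk RNA was measured, so a change in the share of cells with a transcript and a change in the transcript per cell cannot be told apart.

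Values are log2 expression values from RMA, a method that subtracts background, makes the distributions of arrays alike and summarises the probes of a set. Array means lay between 5.13 and 5.14 at 24 h and at 5.52 at 48 h, which points to a separate normalisation run for each time, and levels were compared within a time unless stated. The 3 arrays at 10 nM stood apart in their controls. The mean of 24 poly-A spike probe sets was 3.33 to 3.40 there and 5.74 to 6.60 on the other arrays. The 3' minus 5' difference of the ACTB control was 2.65 to 2.70 at 10 nM and 0.080 to 0.47 elsewhere, whereas that of GAPDH was 0.088 to 0.18 on all arrays. Of 9 epithelial and A549 markers, 7 lay above the 99th percentile of genes, while the epithelial EPCAM was at the 37.5th and KRT19 at the 56.7th. Markers of leukocytes (6 measured) lay between the 12.8th and 39.7th percentile, of endothelium (5) between 6.65 and 43.4, of platelets (4) between 20.6 and 52.0, and of fibroblasts (7) between 16.6 and 73.7.

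Promoter sequences are shown for PTGS2 and PTGES, because both were higher than vehicle at 48 h by their brightest probe sets. They were not alone in this, as PLA2G4A and HPGD were also called higher at 40 nM, PTGER4 at 10 nM and PTGS1 at both doses. The rise of PTGES at 10 nM was not seen in its dimmer probe set. Each run is the 250 bases before the annotated start, from RefSeq on GRCh38.p14, written 5′ to 3′ on the strand of the gene. All 7 genes matched an entry of the promoter table, and HPGD and PTGS1 have 2 entries each. Capitals mark letters that match a searched motif on either strand, apart from the E-box (CANNTG), which was searched but left in lower case. PTGS2 lies on chromosome 1 at 186671791 to 186680423, on the minus strand, and its window is chr1:186680424-186680673. PTGES lies on chromosome 9 at 129738349 to 129753042, also on the minus strand, with its window at chr9:129753043-129753292.
PTGS2: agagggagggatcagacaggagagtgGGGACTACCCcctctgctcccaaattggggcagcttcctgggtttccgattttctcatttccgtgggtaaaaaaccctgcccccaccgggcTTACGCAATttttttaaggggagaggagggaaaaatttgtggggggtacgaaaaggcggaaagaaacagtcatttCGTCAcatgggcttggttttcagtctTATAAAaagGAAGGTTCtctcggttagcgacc
PTGES: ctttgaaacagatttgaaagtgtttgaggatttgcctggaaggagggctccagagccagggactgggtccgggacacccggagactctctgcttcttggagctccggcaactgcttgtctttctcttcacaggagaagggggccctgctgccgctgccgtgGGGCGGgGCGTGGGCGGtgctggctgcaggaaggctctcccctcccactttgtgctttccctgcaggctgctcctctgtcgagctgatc

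The PTGS2 window held an NF-kB-like match (searched as GGGA, NNNN and CC joined) at 224 to 215 bases before the start, a C/EBP-like match (TTNNGNAAT) at 133 to 125, a cAMP response half-site (TGACG, here on the other strand) at 58 to 54, a TATA box (TATAAA) at 32 to 27 and a match to the core of a heat shock element (GAANNTTC) at 23 to 16. Its E-box match, CACATG at 55 to 50, overlaps the half-site. Of the 35116 windows of this length in the table, 22.6% hold the NF-kB-like letters, 9.85% the C/EBP-like, 21.2% the half-site, 10.7% the TATA box, 5.78% the heat shock core and 61.8% an E-box. The PTGES window held 2 GC boxes (GGGCGG, in 42.6% of windows), at 89 to 84 and 78 to 73, the second overlapped by an EGR1-like match (GCGNGGGCG, in 8.41%) at 82 to 74. It also held an E-box at 143 to 138. Neither window held an AP-1 match (TGANTCA, in 6.57% of windows), and the PTGES window held none of the other motifs. These matches describe the letters only.

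PTGS2 had the highest difference from vehicle of the 7 genes in each of the 3 comparisons with vehicle, and HPGD, PLA2G4A and PTGES were also higher at 40 nM at both times. After 24 h at 40 nM, 6 of the 7 genes were higher and 0 lower (limma, adjusted p below 0.05 over all 19775 genes), where 31.5% of all genes were called, 14.8% higher and 16.7% lower. After 48 h at 40 nM, 5 of the 7 were higher and 0 lower, with 21.3% of all genes called, 10.5% higher and 10.7% lower. After 48 h at 10 nM, 4 were higher and 1, PLA2G4A, was lower, with 26.3% of all genes called, 14.4% higher and 11.9% lower. The median log2 difference over the 7 genes was 0.44, 0.30 and 0.46 in these 3 comparisons, beside medians over all genes of -0.0072, -0.016 and 0.0042. The arrays of treated and vehicle cells did not overlap for 5 genes at 24 h, 5 at 40 nM and 48 h, and 7 at 10 nM, beside 37.6%, 38.8% and 40.2% of all genes. The 40 nM and 10 nM comparisons at 48 h share their vehicle arrays.

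**Figure D1:**
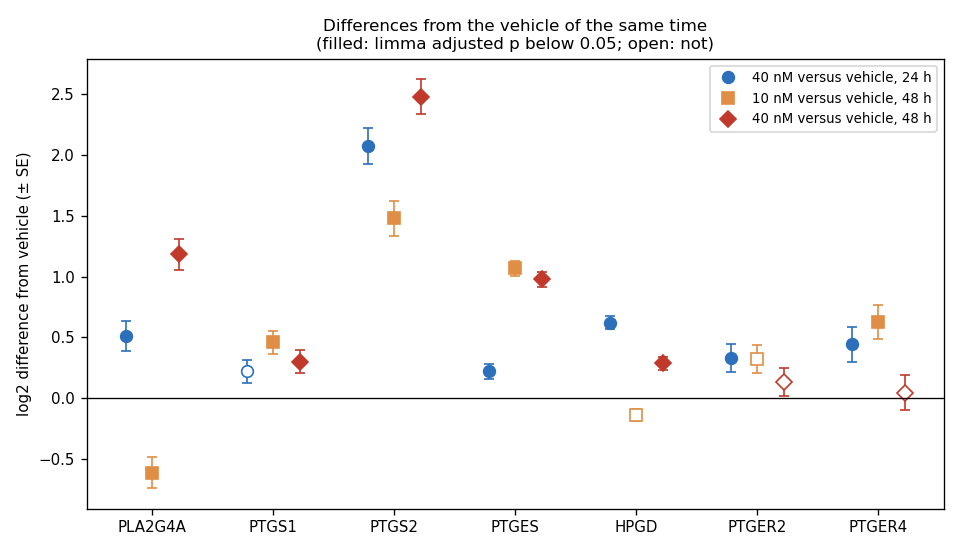
Log2 difference from the vehicle of the same time, with its standard error, for the brightest probe set of each of the 7 genes (3 arrays per group); filled symbols passed the limma test and open ones did not. PTGS2 has the highest point of the 7 genes in each comparison, and PLA2G4A lies below 0 at 10 nM and above it at 40 nM.

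The count at 24 h rested partly on small differences. It dropped from 6 to 3 with array medians subtracted, with the compared groups alone and with a threshold of 0.01, and also without replicate 2 of the vehicle arrays or without replicate 3 of the 40 nM arrays. In each of these the genes that passed were PTGS2, PLA2G4A and HPGD. Marker lists moved with the same groups. Of the 9 epithelial and A549 markers 8 were called higher at 40 nM and 24 h (median difference 0.53) and 6 at 40 nM and 48 h (median 0.18). Of the 7 fibroblast markers COL1A1 (0.50) and PDGFRB (0.34) were called higher at 24 h, and the log2 of the summed list was 8.26 to 8.55 in vehicle and 8.66 to 8.94 at 40 nM. The part of these in the values of the 7 genes was not tested.

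PLA2G4A, the phospholipase that frees arachidonic acid, read below vehicle at 10 nM and above it at 40 nM at 48 h. Its single probe set read 8.09, 8.06 and 8.03 on the vehicle arrays at 48 h, 7.57, 7.55 and 7.22 at 10 nM, and 9.24, 9.37 and 9.12 at 40 nM. No arrays of these 3 groups overlap, with 10 nM lowest and 40 nM highest. Against vehicle it fell by 0.61 ± 0.13 at 10 nM (log2 ± SE, n = 3 arrays per group; limma, adjusted p = 0.00226), which is 1.53-fold lower. At 40 nM it rose by 1.18 ± 0.13, or 2.27-fold (adjusted p = 1.31e-05). The difference between 40 nM and 10 nM was 1.79 ± 0.13 (adjusted p = 1.82e-07). The 10 nM arrays stood apart in their controls, and PLA2G4A has no other probe set to set beside this one. The part of these controls in the fall at 10 nM was not tested.

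At 24 h PLA2G4A rose at 40 nM by less than at 48 h. The vehicle arrays read 5.90, 5.52 and 5.47, and the 40 nM arrays 6.0, 6.07 and 6.35. The groups did not overlap, although the gap between vehicle replicate 1 and the lowest 40 nM array was small. The rise was 0.51 ± 0.13 (adjusted p = 0.00615), and it lay between 0.41 and 0.65 when each array was left out in turn. The genes for PLA2G4A and PTGS2 are on the same chromosome, facing away from each other with 149 kb between their starts.

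PTGS2, the inducible cyclooxygenase, had the largest rises of the 7 genes. At 24 h it read 5.47, 4.75 and 4.85 in vehicle and 6.99, 7.01 and 7.28 at 40 nM. All 3 treated arrays were above all vehicle arrays, by 2.07 ± 0.14 on the log2 scale or 4.21-fold (limma, adjusted p = 7.94e-08). At 48 h the vehicle arrays read 7.99, 7.81 and 7.88, the 10 nM arrays 9.35, 9.47 and 9.30, and the 40 nM arrays 10.38, 10.35 and 10.38. The 3 groups at 48 h stand apart from each other and rank by dose. The rise was 1.48 ± 0.14, or 2.78-fold, at 10 nM (adjusted p = 3.17e-06) and 2.48 ± 0.14, or 5.56-fold, at 40 nM (adjusted p = 3.76e-08). The step from 10 to 40 nM was 0.998 ± 0.14 (1.998-fold, adjusted p = 0.000132). Among the 19775 genes PTGS2 was number 32 by log2 difference at 40 nM and 24 h, number 108 at 10 nM and number 12 at 40 nM and 48 h.

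The second PTGS2 probe set, 1554997_a_at, was dimmer and moved the same way. It read 2.68, 2.96 and 2.84 in vehicle at 24 h and 4.29, 4.20 and 4.46 at 40 nM. At 48 h it read 5.18, 5.0 and 5.19 in vehicle, 6.75, 6.57 and 6.23 at 10 nM and 8.09, 8.13 and 7.92 at 40 nM. Its differences from vehicle were 1.49 ± 0.12 at 24 h, 1.39 ± 0.12 at 10 nM and 2.92 ± 0.12 at 40 nM and 48 h. Each passed the test over all 54613 probe sets (the highest adjusted p = 9.57e-07), where 21.1%, 19.1% and 12.5% of probe sets were called in either direction.

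PTGS1, the constitutive cyclooxygenase, gave calls that differed between its 4 probe sets. Its brightest probe set, 205128_x_at, carries a suffix that Affymetrix gives to sets whose probes may also match other genes. It read 5.60, 5.77 and 5.80 in vehicle and 5.84, 5.99 and 6.0 at 40 nM at 24 h, a difference of 0.22 ± 0.10 that did not pass (limma, adjusted p = 0.104). At 48 h it read 5.08, 5.18 and 4.93 in vehicle, 5.56, 5.43 and 5.58 at 10 nM and 5.56, 5.32 and 5.21 at 40 nM. Both treated groups were above vehicle with no overlap, by 0.46 ± 0.10 at 10 nM (adjusted p = 0.00231) and 0.30 ± 0.10 at 40 nM (adjusted p = 0.0386). The call at 40 nM was lost over all probe sets (adjusted p = 0.064), without the 10 nM arrays (adjusted p = 0.0559), with the mean of the probe sets (0.13, adjusted p = 0.254) and under the replicate block (adjusted p = 0.0656). It was also lost without vehicle replicate 1 (0.0825) or 3 (0.170), and without replicate 1 (0.184) or 2 (0.0659) of the 40 nM arrays.

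The other PTGS1 probe sets gave other values. Set 205127_at differed from vehicle by 0.14 ± 0.10, -0.095 ± 0.10 and -0.033 ± 0.10 at 40 nM and 24 h, 10 nM, and 40 nM and 48 h, and passed in none. Set 215813_s_at gave 0.27 ± 0.14, 0.41 ± 0.14 and 0.064 ± 0.14, of which the value at 10 nM passed over all probe sets (adjusted p = 0.0458). Set 238669_at rose at 24 h by 0.86 ± 0.13 (adjusted p = 0.000181), from 4.81, 4.47 and 4.38 to 5.40, 5.27 and 5.57, and gave 0.22 and 0.17 at 10 nM and 40 nM at 48 h without passing. At 24 h all 4 PTGS1 probe sets were thus above 0 and 1 of them passed, while the mean of the 4 sets gave 0.37, which passed (adjusted p = 0.000539).

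PTGES, the inducible prostaglandin E2 synthase, rose to a level near 10 with either dose at 48 h when read from its brightest probe set, 210367_s_at. The vehicle arrays at 48 h read 9.01, 8.87 and 9.01, the 10 nM arrays 10.04, 10.07 and 9.98, and the 40 nM arrays 9.89, 9.98 and 9.96. Both treated groups lay about 1 log2 unit above vehicle. The rise was 1.07 ± 0.06, or 2.10-fold, at 10 nM (limma, adjusted p = 1.84e-08) and 0.98 ± 0.06, or 1.97-fold, at 40 nM (adjusted p = 8.57e-08). The doses differed by -0.088 ± 0.06, which did not pass (adjusted p = 0.376).

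The dimmer PTGES probe set, 207388_s_at, gave the same value at 40 nM and another at 10 nM. It read 7.81, 7.64 and 7.86 in vehicle, 7.65, 7.90 and 7.72 at 10 nM and 8.74, 8.78 and 8.73 at 40 nM. Here the 10 nM arrays overlap vehicle (-0.012 ± 0.08, adjusted p = 0.961 over all probe sets), while 40 nM is higher by 0.97 ± 0.08 (adjusted p = 1.35e-06) and exceeds 10 nM by 0.99 ± 0.08 (adjusted p = 7.21e-07). The gap between the 2 probe sets was 2.16 to 2.39 on the 10 nM arrays and 0.67 to 1.23 on the other 12. These are the arrays on which the 3' minus 5' difference of the ACTB control was high, and the part of that in the gap was not tested. So the rise of PTGES at 40 nM was seen in both probe sets, and that at 10 nM in 1 of them.

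**Figure D2:**
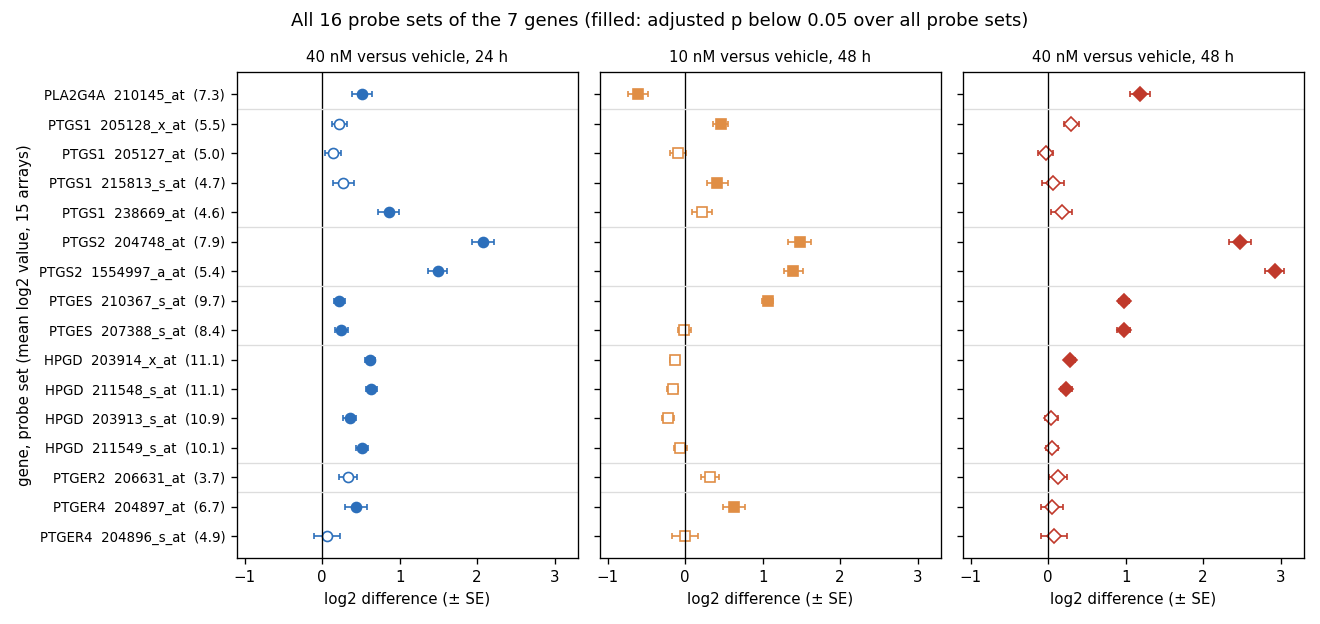
Log2 difference from vehicle with its standard error for each of the 16 probe sets, in 3 panels for the 3 comparisons; the number in brackets is the mean log2 value over the 15 arrays, and filled symbols passed the limma test over all probe sets. The probe sets of PTGS2 lie together at the right in each panel, and those of PTGES part only at 10 nM, at 1.07 and -0.012.

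At 24 h PTGES changed little. Vehicle arrays read 9.74, 9.62 and 9.62 and 40 nM arrays 9.86, 9.83 and 9.95, with no overlap. The rise of 0.22 ± 0.06 passed (adjusted p = 0.0131), but not without vehicle replicate 2 (0.0525) or without replicate 3 of the 40 nM arrays (0.0548). The other probe set gave 0.25 ± 0.08 (adjusted p = 0.0478 over all probe sets).

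HPGD, which inactivates prostaglandin E2, rose at 40 nM at both times, and more so at 24 h. Its brightest probe set, 203914_x_at, has the same suffix as that of PTGS1, for probes that may also match other genes. At 24 h this set read 10.72, 10.67 and 10.67 in vehicle and 11.30, 11.34 and 11.28 at 40 nM. The treated arrays stood clear of vehicle, higher by 0.62 ± 0.05 or 1.54-fold (limma, adjusted p = 4.12e-07). At 48 h it read 11.14, 11.15 and 11.10 in vehicle, 11.03, 10.97 and 10.99 at 10 nM and 11.39, 11.50 and 11.37 at 40 nM. At 40 nM it rose by 0.29 ± 0.05 (adjusted p = 0.00103), and at 10 nM it was at -0.14 ± 0.05 without passing (adjusted p = 0.0703), so the doses lay on opposite sides of vehicle and differed by 0.42 ± 0.05 (adjusted p = 2.97e-05). The value at 10 nM passed with cyclic loess, with a floor, without the dimmest genes, and with an intensity trend (adjusted p between 0.00789 and 0.0328).

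All 4 HPGD probe sets were called higher at 24 h, by 0.35 to 0.63. At 10 nM all 4 were negative, between -0.22 and -0.061, and none passed. At 40 nM and 48 h, 2 passed (0.29 and 0.23) and the other two were at 0.044 and 0.050. With the mean of the 4 sets the rise at 40 nM and 48 h was 0.15, which did not pass (adjusted p = 0.0786).

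The receptor transcripts changed by less than 1 log2 unit in every comparison with vehicle. PTGER4, which raises cyclic AMP on binding prostaglandin E2, read 6.99, 6.53 and 6.51 in vehicle and 7.08, 6.95 and 7.33 at 40 nM at 24 h. Vehicle replicate 1 overlapped the treated arrays. The difference of 0.44 ± 0.14 passed (limma, adjusted p = 0.0278), yet not without vehicle replicate 2 (0.108) or 3 (0.108), nor without replicate 1 (0.0544) or 3 (0.121) of the 40 nM arrays. At 48 h PTGER4 read 6.51, 6.30 and 6.45 in vehicle, 7.05, 7.23 and 6.85 at 10 nM and 6.35, 6.65 and 6.39 at 40 nM. The 10 nM arrays were all above vehicle, by 0.63 ± 0.14 or 1.54-fold (adjusted p = 0.00417). At 40 nM the difference was 0.045 ± 0.14 (adjusted p = 0.900), and 40 nM was below 10 nM by -0.58 ± 0.14 (adjusted p = 0.0071). The dimmer set 204896_s_at, with a mean level of 4.94, gave 0.064, 0.0029 and 0.075 in the comparisons with vehicle and did not pass in any.

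PTGER2, the other Gs-coupled receptor for prostaglandin E2, was dim, at the 19.6th percentile of genes. At 24 h it read 3.90, 3.59 and 3.42 in vehicle and 3.99, 4.02 and 3.90 at 40 nM. The groups met at 3.90, and the difference of 0.33 ± 0.12 passed (adjusted p = 0.0397) but was lost in 5 of the 6 fits that left out an array, all but that without vehicle replicate 1, and in the fit over all probe sets (adjusted p = 0.0557). At 48 h it read 3.51, 3.43 and 3.32 in vehicle, 3.82, 3.85 and 3.55 at 10 nM and 3.60, 3.65 and 3.41 at 40 nM. The difference was 0.32 ± 0.12 at 10 nM (adjusted p = 0.0567) and 0.13 ± 0.12 at 40 nM (adjusted p = 0.534), and neither passed. The value at 10 nM passed with the replicate number as a block (adjusted p = 0.0101) and when array 3 at 10 nM was left out (0.41, adjusted p = 0.0222).

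**Figure D3:**
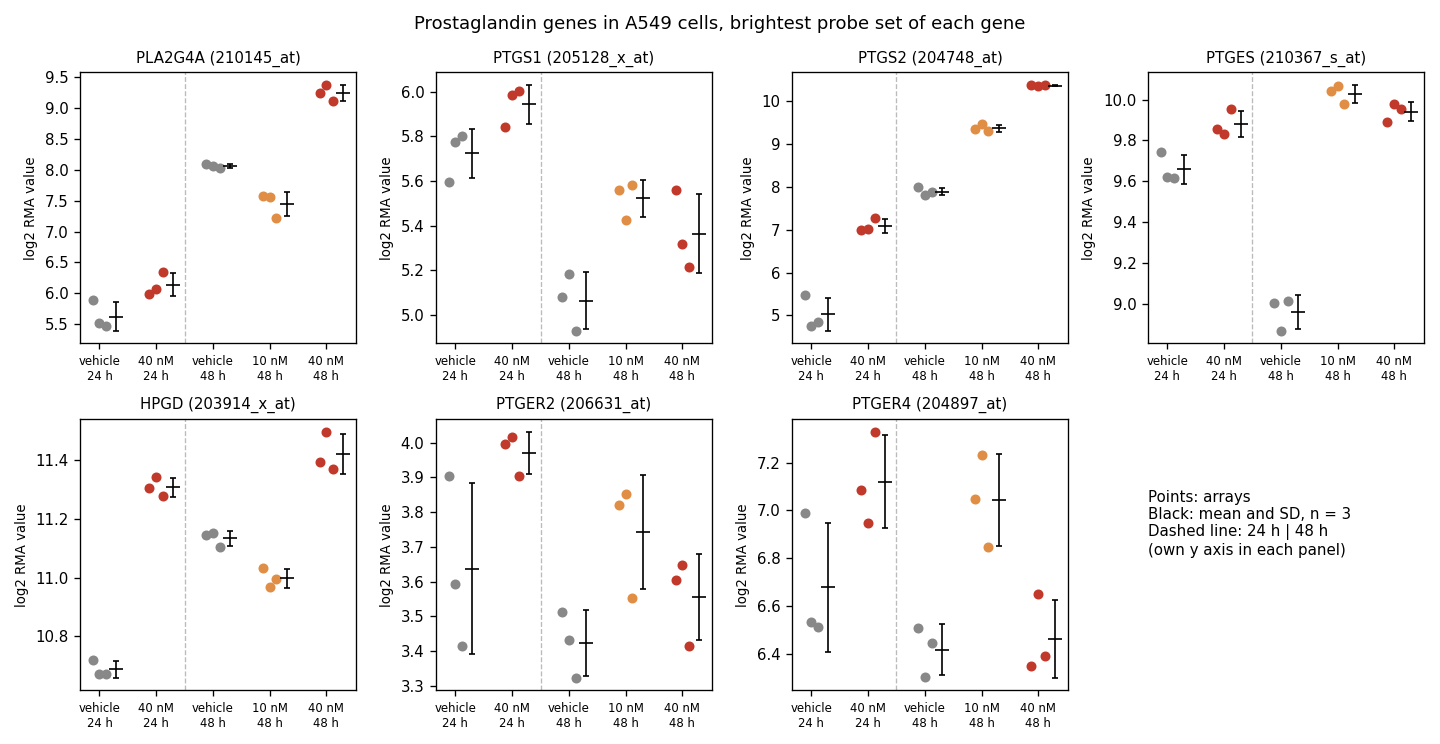
Log2 RMA value on each of the 15 arrays for the brightest probe set of each gene, in 7 panels with their own y axes; points are arrays, and black marks are the mean and SD of 3 arrays. The 3 groups of PTGS2 at 48 h are separate and rise with dose, from a mean of 7.89 through 9.37 to 10.37, whereas the 10 nM arrays of PLA2G4A and HPGD lie below vehicle.

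To compare 48 h with 24 h of 40 nM, the difference from vehicle at 24 h was subtracted from that at 48 h, which removes a shift common to all arrays of a time. Of the 7 genes, 2 had a higher effect at 48 h and 1 a lower effect, beside 17.3% of all genes (9.18% and 8.11%) and 9.57% of all probe sets called. The effect on PTGES was greater at 48 h by 0.76 ± 0.09 (limma, adjusted p = 3.93e-05), and that on PLA2G4A by 0.67 ± 0.18 (adjusted p = 0.0187). Without replicate 1 of the 40 nM arrays at 24 h, or replicate 2 of those at 48 h, the latter did not pass (adjusted p = 0.0508 and 0.0514). The effect on HPGD was smaller at 48 h, by -0.33 ± 0.07 (adjusted p = 0.00526). For PTGS2 the difference was 0.40 ± 0.20 from the brightest probe set, which did not pass (adjusted p = 0.230), and 1.43 ± 0.17 from the dimmer one, which did (adjusted p = 7.79e-05 over all probe sets). The dimmer set read only 2.68 to 2.96 in vehicle at 24 h, beside a lowest value of 1.88 over all arrays. The part of this low level in the 1.43 was not tested. The differences for PTGS1, PTGER2 and PTGER4 were 0.080 ± 0.14, -0.20 ± 0.16 and -0.40 ± 0.20, and none of them passed. That of PTGER4 passed without vehicle replicate 1 at 24 h (-0.55, adjusted p = 0.046).

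At 48 h, 40 nM was higher than 10 nM for PTGS2, PLA2G4A and HPGD and lower for PTGER4, beside 26.4% of all genes called, 11.9% higher and 14.5% lower. The arrays of the doses did not overlap for 5 of the 7 genes, beside 39.9% of all genes. Of the 16 probe sets 7 were higher at 40 nM and 1 was lower, beside 18.7% of all probe sets called. This comparison and those of 10 nM with vehicle rest on the 10 nM arrays, whose controls stood apart. Markers of other cells also differed on these arrays: the fibroblast gene LUM was at -3.45 and the platelet genes PF4 and PPBP at -1.08 and -0.96 against vehicle, as was the keratin KRT19 at -2.41. The leukocyte gene ITGAM was called higher at 10 nM, by 1.11 (1 of 6 leukocyte markers). The log2 of the summed fibroblast list was 8.59 to 8.70 at 10 nM, 9.11 to 9.20 in vehicle and 9.23 to 9.39 at 40 nM. That of the platelet list was 7.25 to 7.49, 7.81 to 8.10 and 7.89 to 8.06. Of the fibroblast list 2 of 7 and of the platelet list 2 of 4 were called lower at 10 nM. Their part in the values of the prostaglandin genes was not tested. Of the leukocyte list, CD14 and ITGAM were called higher at 40 nM and 48 h (2 of 6), with the pan-leukocyte gene PTPRC at a mean of 3.47 in vehicle and a difference of 0.096.

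Levels in vehicle cells differed between the times, with the limit that the 2 times appear to be normalised apart. The median difference of all genes, 48 h minus 24 h, was 0.35. Of the 7 genes 3 were called higher and 2 lower, where 70.7% of all genes were called, 67.3% higher and 3.35% lower. The split over all genes depends on the scaling: with array medians subtracted 2248 were higher and 6559 lower. So does that of the 7 genes, with 2 higher and 4 lower when array medians were subtracted and 3 higher and 4 lower with cyclic loess. The vehicle arrays of the times did not overlap for 6 of the 7 genes, beside 71.8% of all genes, and 12 of the 16 probe sets were called, beside 66.6% of all probe sets. PTGS2 was higher by 2.87 and PLA2G4A by 2.43, which is 2.52 and 2.08 above the median of all genes. PTGES was lower by 0.698 and PTGS1 by 0.661 on the log2 scale, or -1.05 and -1.01 relative to the median. HPGD was at 0.095 relative to it, PTGER2 at -0.57 and PTGER4 at -0.61. Before the median was subtracted PTGER4 was at -0.26 and its dimmer set, 204896_s_at, at 0.31, and neither passed. PTGS2 thus read higher in vehicle cells at 48 h (mean 7.89) than in cells at 40 nM for 24 h (7.09), a comparison of levels across the times with the same limit. Markers also differed between the vehicles: LUM was at 3.84, the keratin KRT19 at 3.46 and PF4 at 1.73. Of the epithelial and A549 markers 9 of 9 were called higher, of the fibroblast markers 6 of 7 and of the platelet markers 3 of 4. In these lists 0 were lower, and their part in the values of the 7 genes was not tested. The second brightest PTGS1 set, 205127_at, was higher by 0.25 between the vehicles, opposite to 205128_x_at, although this is below the median of all genes. The other PTGS1 sets, 215813_s_at and 238669_at, were at -0.89 and -0.40.

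The genes whose 3 differences from vehicle were closest to those of a given gene were found by Euclidean distance, for each gene with a difference of at least 1. Those of PTGS2 (2.07, 1.48 and 2.48 at 40 nM and 24 h, 10 nM, and 40 nM and 48 h) were nearest to the tumour-suppressor candidate RARRES1 (1.98, 1.15 and 2.35, distance 0.365), the urea cycle enzyme ASS1 (distance 0.422) and HOGA1 (0.458). Those of PTGES were nearest to the basement membrane collagen COL4A1 (0.18, 0.99 and 0.93, distance 0.098), the stress factor ATF3 (0.174) and RSPH1 (0.223). PTGES reached a difference of 1 only at 10 nM, by its brightest probe set (1.07, beside 0.98 at 40 nM and 48 h). Its dimmer probe set gave -0.012 at 10 nM, so these neighbours rest on the brightest set. The differences of PLA2G4A were nearest to the thromboxane synthase TBXAS1 (0.61, -0.41 and 1.06, distance 0.258), the chemokine CXCL1 (0.334) and ABI3BP (0.386). TBXAS1, which makes thromboxane A2 from prostaglandin H2, is thus the gene closest in this measure to the phospholipase. The measure covers 3 differences, of which those at 48 h share a vehicle.

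Other genes of prostanoid synthesis, transport, breakdown and signalling were read from a list, of which 22 of 23 were measured. At 24 h 6 were higher and 4 lower (median -0.025), at 10 nM 3 and 3 (median 0.066), and at 40 nM and 48 h 6 and 2 (median 0.016). Of all genes, 31.5%, 26.3% and 21.3% were called in these 3 comparisons, and the counts of 10, 6 and 8 of 22 are to be read against these shares. PTGR1, a reductase that inactivates prostaglandins and leukotriene B4, rose at 40 nM by 1.12 ± 0.05 at 24 h and 0.75 ± 0.05 at 48 h, and at 10 nM by 0.34 ± 0.05. AKR1C3, the aldo-keto reductase that makes prostaglandin F isomers, rose at 40 nM by 0.80 ± 0.05 at 24 h and 0.17 ± 0.05 at 48 h, and ABCC4, which exports prostaglandin E2, by 0.73 ± 0.08 at 24 h and 0.36 ± 0.08 at both doses at 48 h. TBXAS1 rose by 0.61 ± 0.09 at 24 h and 1.06 ± 0.09 at 40 nM and 48 h, and fell by 0.41 ± 0.09 at 10 nM. PTGR2, another prostaglandin reductase, rose by 0.43 ± 0.12 at 24 h, and by 0.70 ± 0.12 at 10 nM and 0.67 ± 0.12 at 40 nM at 48 h.

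The constitutive prostaglandin E synthases were lower. PTGES2 fell by 0.57 ± 0.07 at 10 nM (limma, adjusted p = 5.02e-05), and stood at -0.21 and -0.33 at 40 nM after 24 and 48 h, which passed too (adjusted p = 0.0494 and 0.00533). PTGES3, which is also the HSP90 co-chaperone p23, lay at the 99.5th percentile of genes. It fell by 0.17 ± 0.05 at 24 h (adjusted p = 0.0152) and by 0.30 ± 0.05 at 10 nM (adjusted p = 0.000254), and was at -0.11 ± 0.05 at 40 nM and 48 h (adjusted p = 0.141). The remaining prostanoid receptors on the list, PTGER1, PTGER3, PTGDR, PTGDR2, PTGFR, PTGIR and TBXA2R, passed in none of the 3 comparisons.

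For arachidonate release and re-esterification 18 of 21 genes were measured, with 4 higher and 2 lower at 24 h, 5 and 0 at 10 nM, and 4 and 2 at 40 nM and 48 h (medians 0.071, 0.048 and 0.034). These are 6, 5 and 6 of 18, near the 31.5%, 26.3% and 21.3% of all genes called at 24 h and 10 nM and above it at 40 nM and 48 h. PLA2G4C, a phospholipase A2 of the same group as PLA2G4A, rose by 1.40 ± 0.14 at 10 nM and 1.11 ± 0.14 at 40 nM at 48 h, and was at -0.26 ± 0.14 at 24 h (adjusted p = 0.181). The monoacylglycerol lipase MGLL, which can supply arachidonic acid, rose by 1.25 ± 0.08 at 24 h, 0.48 ± 0.08 at 10 nM and 0.53 ± 0.08 at 40 nM and 48 h. MBOAT7, which puts arachidonic acid back into phosphatidylinositol, rose by 1.04 ± 0.06, 0.45 ± 0.06 and 0.79 ± 0.06 in the same order. ANXA1, known as an inhibitor of phospholipase A2, rose by 0.40 ± 0.05 at 24 h and 0.16 ± 0.05 at 10 nM, and at 40 nM and 48 h it fell by 0.18 ± 0.05 (limma, adjusted p = 0.0263). LPCAT3, another reacylating enzyme, fell by 0.38 ± 0.08 at 24 h. The lysosomal phospholipase PLA2G15 rose by 0.50 ± 0.12 at 10 nM, and ACSL4, which activates arachidonic acid, by 0.42 ± 0.09 at 40 nM and 48 h.

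Of the lipoxygenase and leukotriene genes 12 of 13 were measured, with 2 higher and 1 lower at 24 h, 2 and 1 at 10 nM, and 0 and 2 at 40 nM and 48 h (medians 0.010, 0.014 and -0.094). The totals of 3, 3 and 2 of 12 are close to or below the 31.5%, 26.3% and 21.3% of all genes called. ALOX5AP, the partner protein of 5-lipoxygenase, fell by 1.46 ± 0.07 at 24 h and 0.39 ± 0.07 at 40 nM and 48 h, and rose by 0.24 ± 0.07 at 10 nM. The leukotriene B4 receptor LTB4R rose by 0.39 ± 0.11 at 24 h and fell by 0.44 ± 0.11 at 40 nM and by 0.36 ± 0.11 at 10 nM at 48 h. LTA4H, which makes leukotriene B4, rose by 0.29 ± 0.07 at 24 h, and ALOX12B, a skin lipoxygenase, by 0.62 ± 0.12 at 10 nM.

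**Figure D4:**
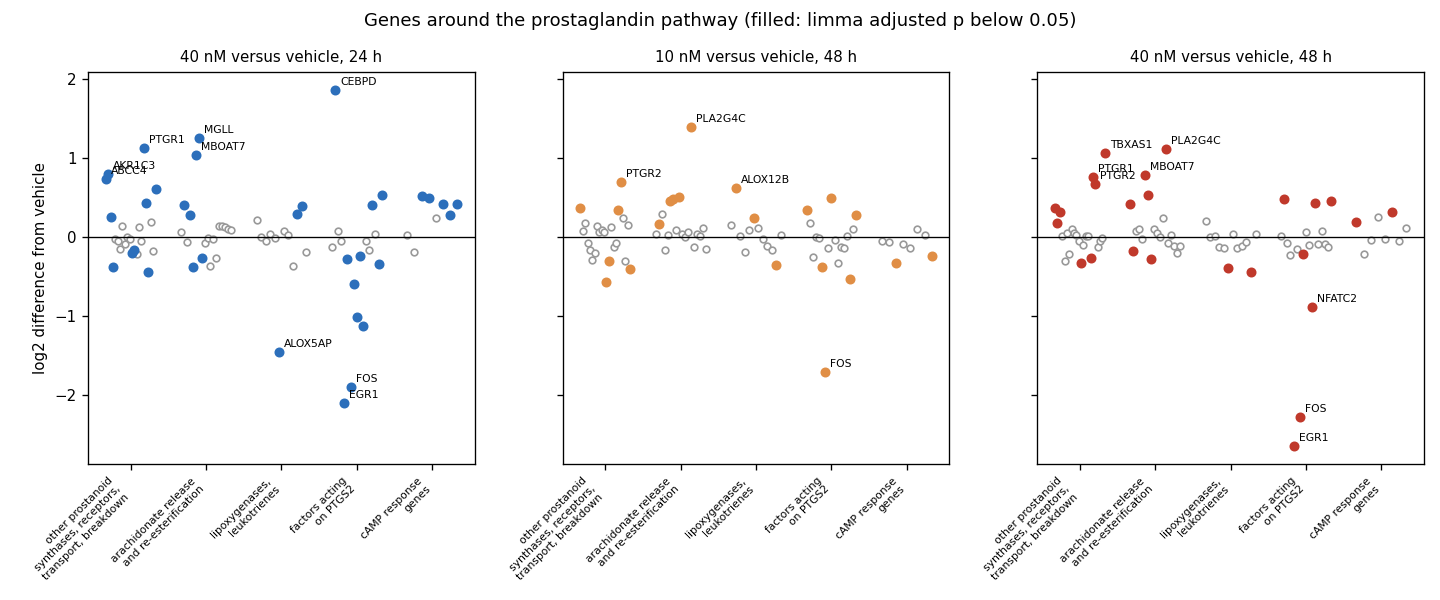
Log2 difference from vehicle for each measured gene of 5 lists, in 3 panels for the 3 comparisons; filled points passed the limma test, open ones did not, and some of those past a difference of 0.6 are named. EGR1 and FOS lie lowest at 40 nM, and PLA2G4C is highest at 10 nM.

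Factors known to act on PTGS2 transcription or on its mRNA were 17, all measured, with 3 higher and 8 lower at 24 h, 3 and 3 at 10 nM, and 3 and 4 at 40 nM and 48 h (medians -0.16, -0.036 and -0.091), beside 31.5%, 26.3% and 21.3% of all genes called. CEBPD, a C/EBP factor, rose by 1.86 ± 0.08 at 24 h and 0.48 ± 0.08 at 40 nM and 48 h. The immediate early factor EGR1 fell by 2.11 ± 0.07 and 2.65 ± 0.07 at 40 nM after 24 and 48 h, and was at -0.017 ± 0.07 at 10 nM. FOS, an AP-1 subunit, fell in all 3 comparisons, with differences of -1.9 ± 0.12 at 24 h, -1.715 ± 0.12 at 10 nM and -2.28 ± 0.12 at 40 nM and 48 h. NFATC2 fell by 1.13 ± 0.12 and 0.89 ± 0.12 at 40 nM. JUN, another AP-1 subunit, fell by 1.02 ± 0.05 at 40 nM and 24 h (limma, adjusted p = 5.7e-09), rose by 0.49 ± 0.05 at 10 nM, and was at 0.066 ± 0.05 at 40 nM and 48 h. At 10 nM ZFP36, an RNA-binding protein that destabilises PTGS2 mRNA, fell by 0.53 ± 0.07. ELAVL1, which stabilises that mRNA, fell by 0.38 ± 0.05 at 10 nM and by 0.28 ± 0.05 at 24 h. The remaining listed factors whose kinds of motif the PTGS2 window matched were NFKB1, RELA, CEBPB and CREB1, which are named outside the rule, after their values were seen. In the order 40 nM and 24 h, 10 nM, and 40 nM and 48 h, the NF-kB subunit NFKB1 was at -0.049, -0.12 and 0.42, of which the last passed. The other NF-kB subunit, RELA, was at -0.16, -0.14 and -0.085, and none passed. The C/EBP factor CEBPB was at -0.13, 0.34 and 0.0059, of which the value at 10 nM passed, and CREB1, which binds cAMP response elements, at -0.057, -0.0073 and -0.23, with none passing.

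Genes that respond to cyclic AMP, downstream of receptors such as PTGER2 and PTGER4, were 8 measured of 10, with 5 higher and 0 lower at 24 h, 0 and 2 at 10 nM, and 2 and 0 at 40 nM and 48 h (medians 0.34, -0.084 and 0.043), beside 31.5%, 26.3% and 21.3% of all genes called. At 24 h the nuclear receptor NR4A1 rose by 0.52 ± 0.08, NR4A2 by 0.49 ± 0.12, the phosphodiesterase PDE4B by 0.42 ± 0.07 and the kinase SIK1 by 0.41 ± 0.05. At 10 nM NR4A1 fell by 0.33 ± 0.08 and SIK1 by 0.24 ± 0.05. PDE4B rose by 0.32 ± 0.07 and CREM by 0.18 ± 0.06 at 40 nM and 48 h.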

How the data were processed

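The authors deposited 1 log2 RMA value per probe set and array, made, per the submitters' processing notes, with Affymetrix Expression Console. The version was not given in the sources used here. On arrays there is no read depth, and their number limits the precision: standard errors of the differences between groups had a median of 0.097. Of 54675 probe sets, 62 are controls, 41091 have 1 gene symbol, 1801 have several and for 11721 no gene is named here. Of those with 1 symbol, 41037 took the current one by gene ID.

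Group means were fitted to the 15 arrays by lmFit and eBayes of limma 3.58.1 (R 4.3.3, 10 residual degrees of freedom), over 1 probe set per gene and, for probe sets that are not the brightest, over all 54613 non-control ones. P-values are two-sided and Benjamini-Hochberg adjusted over all genes or probe sets, with a threshold of 0.05. On simulated data with 19775 genes for the 24 h comparison, 61% of changes of 0.5 and 98% of changes of 1 were recovered, with 14 false calls. Only 100 genes were given each size of change there, while 31.5% of genes were called in the measured comparison. The rates therefore need not hold for the measured data.

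The genes, lists and tests were chosen with earlier results of these data known. On each other list, up to 4 passing genes with the largest change per comparison with vehicle are named, and PTGES3 always. Exceptions are named as such. Alternatives were other scalings, filters, probe sets, variance priors, sample sets and a replicate block.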

Additional observations from a re-analysis of the deposited data

Results flagged for a closer look

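The effect of 40 nM differed between 48 h and 24 h by limma's test of the difference itself (adjusted p below 0.05) for the following, given as log2 effect at 48 h minus that at 24 h. Among the prostaglandin genes these were PTGES (0.76, and 0.73 from its dimmer probe set), PLA2G4A (0.67) and HPGD (-0.33, with -0.40 and -0.46 from 2 further probe sets). They also included single probe sets of PTGS2 (1.43) and PTGS1 (-0.68), whose brightest probe sets did not pass. That of PTGS2 was dim in vehicle at 24 h (2.68 to 2.96).

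Among the other genes of the pathway, the difference was positive for PLA2G4C (1.37), ALOX5AP (1.07), TBXAS1 (0.45) and LPCAT3 (0.36). It was negative for LTB4R (-0.83), MGLL (-0.72), AKR1C3 (-0.63), ANXA1 (-0.58), ABCC4 (-0.37), PTGR1 (-0.37) and LTA4H (-0.36). Of the factors acting on PTGS2 it was 1.08 for JUN, -1.38 for CEBPD and -0.55 for EGR1. Of the cyclic AMP response genes it was -0.56 for NR4A1 and -0.30 for SIK1.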

How the results depend on the processing

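The calls of PTGS2 and PLA2G4A against vehicle, in each comparison, kept their direction and passed under every alternative run, PTGS2 between 1.39 and 2.92. PLA2G4A has a single probe set, so the alternatives that change the probe set reused its values and could not test them. Of the 7 genes, the number called at 24 h was 3 with array medians subtracted, with the compared groups alone and at a threshold of 0.01, and 3 to 6 with an array left out. At 10 nM it was 2 with the second brightest probe set (5 to 6 with an array left out). Without _x_at and _s_at probe sets it was 3 of 5, as HPGD and PTGES have no others. At 40 nM and 48 h it was 3 with the mean of probe sets and 2 of 5 without _x_at and _s_at sets (4 to 5), for the vehicle times 3 of 5 without those sets (5 to 6), and for the change of the 40 nM effect 1 of 5 without them (2 to 4). For 40 against 10 nM it was 4 with each array left out, 5 with the mean of probe sets and 3 of 5 without _x_at and _s_at sets. The number of all genes called became 2750 (40 nM, 48 h) and 2197 (change of the effect) with the second brightest probe set, and 2111 for the latter at 0.01. For the vehicle times it was 8255 with cyclic loess (4270 higher, 3985 lower), 8807 with medians subtracted (2248 higher, 6559 lower) and 9230 without the dimmest genes. With an array left out it ranged from 5632 to 6187 at 24 h, 4278 to 4929 at 10 nM, 3329 to 3493 at 40 nM and 48 h, 4231 to 4853 between doses, 12755 to 13438 between vehicles and 2820 to 3527 for the change of effect.

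Directions turned with another probe set for PTGS1 at 10 nM (-0.095), at 40 nM and 48 h (-0.033) and between vehicles (0.25), and with the second brightest for PTGES at 10 nM (-0.012), PTGES between doses (0.99, and 0.45 with the mean) and PTGER4 between doses (0.072). HPGD between vehicles turned to -0.050 with medians subtracted. The cause was not tested. Same-numbered arrays of different groups did not deviate together as a rule (median r = -0.064 over 30 pairs of arrays, range -0.46 to 0.50). With the replicate block 6, 6, 4, 4, 6 and 3 of the 7 genes were called at 24 h, 10 nM, 40 nM and 48 h, between doses, between vehicles and for the change of effect. The block gained PTGER2 at 10 nM (adjusted p = 0.0101) and between vehicles (0.0289), and lost PTGS1 at 40 nM and 48 h (0.0656).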
